A study of Mus musculus with 16 samples.

Results

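The genes described here make cholesterol, control its synthesis, or move it within and out of the cell. They are 32 genes chosen by symbol as members of the pathway, out of 24421 genes listed in the count files. The choice was made with earlier results of these data known, so their counts beside the shares of all genes are descriptive. All 32 passed the filter on low counts, which 14514 genes (59.4%) passed. Gene counts came from RNA sequencing of mouse embryo head tissue at embryonic day 8.5, dissected between the first branchial arch and a level just above the otic vesicle. There were 16 libraries in 4 groups of 4, which the labels describe by genotype and by the folic acid in the diet. Enriched-diet mutants were homozygous for a null allele of Ift88, a gene for a protein of the transport machinery that builds cilia, from mice kept on 10 ppm folic acid. Moderate-diet mutants carried the same homozygous null allele and came from mice kept on 2 ppm folic acid. Enriched-diet wild type and moderate-diet wild type embryos were WT on the same 10 ppm and 2 ppm diets. All 4 groups came from mice kept on their diet for 3 generations, and the sex of each embryo was given. The labels do not give litters, so embryos of a group may share one. The libraries would then not be independent replicates, and the p-values could not tell litter apart from diet or genotype.

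Cholesterol is built from acetyl-CoA through mevalonate and farnesyl pyrophosphate to squalene, which is closed into lanosterol and then trimmed to cholesterol. When sterols in the endoplasmic reticulum are low, SCAP escorts the SREBP proteins to the Golgi, where they are cut and freed to switch on the genes of synthesis and uptake. When sterols are high, the INSIG proteins hold SCAP back, and oxysterols activate the LXR receptors, which switch on efflux. In embryos cholesterol is also attached to Hedgehog proteins and acts on their receptor pathway, which in vertebrates runs through cilia.

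Each library held between 19249433 and 44267434 counts assigned to genes. Reads that fell outside annotated genes were 13.7% to 16.96% of those with 1 alignment and ambiguous reads 1.20% to 1.39%. Ift88 checked the labels. It averaged 4.93 ± 2.69 CPM in enriched-diet mutants, against 19.6 ± 1.42 CPM in enriched-diet wild type, and 3.81 ± 1.87 CPM in moderate-diet mutants, against 17.7 ± 5.63 CPM in moderate-diet wild type (CPM, counts scaled to a common library size; SD, n = 4 each). The libraries did not overlap on either diet, although moderate-diet wild type 2 stood at 9.30 CPM, under its group's other 3. Enriched-diet mutant 2, at 8.61 CPM, and moderate-diet mutant 2, at 6.44 CPM, were the highest of their groups. The sex label of 3 libraries (moderate-diet mutants 1 and 2 and moderate-diet wild type 2) went against their own counts. Labelled sex was a term in the fit of every gene, so this touches all calls, those of X-linked genes such as Nsdhl and Ebp among them. All 12 markers of embryonic head neural and mesenchymal tissue were detected, and their summed level was 1395 to 1628 CPM in enriched-diet mutants, 1474 to 1579 CPM in moderate-diet mutants, 1428 to 1472 CPM in enriched-diet wild type and 1482 to 1525 CPM in moderate-diet wild type. In bulk tissue, fewer cells of one type and less RNA per cell cannot be told apart.

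On the enriched diet, 17 of the 32 sterol genes fell in mutants relative to wild type, 1 rose and 14 did not pass the test (adjusted p under 0.05). Among all genes tested on that diet, 31.2% passed, 16.8% falling and 14.4% rising. The genes that fell were 16 of the 18 synthesis enzymes and Insig1, and the gene that rose was its relative Insig2. By role, the test was passed by all 7 enzymes of the stretch up to farnesyl pyrophosphate, by all 3 enzymes of squalene and lanosterol formation and by 6 of the 8 enzymes that turn lanosterol into cholesterol. None of the isoprenoid branch enzymes, sterol transport proteins, LXR receptors or efflux pumps passed it. The median log2 fold change of the 18 synthesis enzymes was -0.45, against -0.02 for the 14 other sterol genes and -0.01 for all genes tested. For 14 of the 18 synthesis enzymes, every enriched-diet mutant library lay below every enriched-diet wild type library, as was so for 12.5% of all genes.

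On the moderate diet none of the 32 sterol genes passed the test, where 7.62% of all genes did (2.83% fell and 4.79% rose). At an unadjusted p under 0.05 the same edgeR fit gave 10 of the 32, against 23.4% of all genes, and DESeq2's Wald test called 3 of the 32, against 10.8% of all genes. All 18 synthesis enzymes had a log2 fold change below 0 on this diet too, as had 7530 of all 14514 genes. The median of the 18 was -0.16. These enzymes varied together between libraries, so their signs are not 18 separate observations. For 1 of them, Hsd17b7, every mutant lay below every wild type embryo, as for 7.06% of all genes. The sign was not the same in every alternative fit for Hmgcs1, Msmo1 and Sc5d, and all 18 were below 0 in 23 of 27. The smallest adjusted p among the 32 was 0.0550, that of Insig2. Without moderate-diet mutant 3, which had the lowest level of hypoxia genes among the mutants, 4 of the 32 fell on this diet (Acat2, Mvk, Mvd and Nsdhl) and Insig2 rose. Calls over all genes grew in that fit as well, to 14.6%. Counted over both directions, the 5 of 32 genes called were close to that share. By direction, 4 of the 32 fell, beside 6.13% of all genes, and 1 rose, beside 8.43%.

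**Figure D1:**
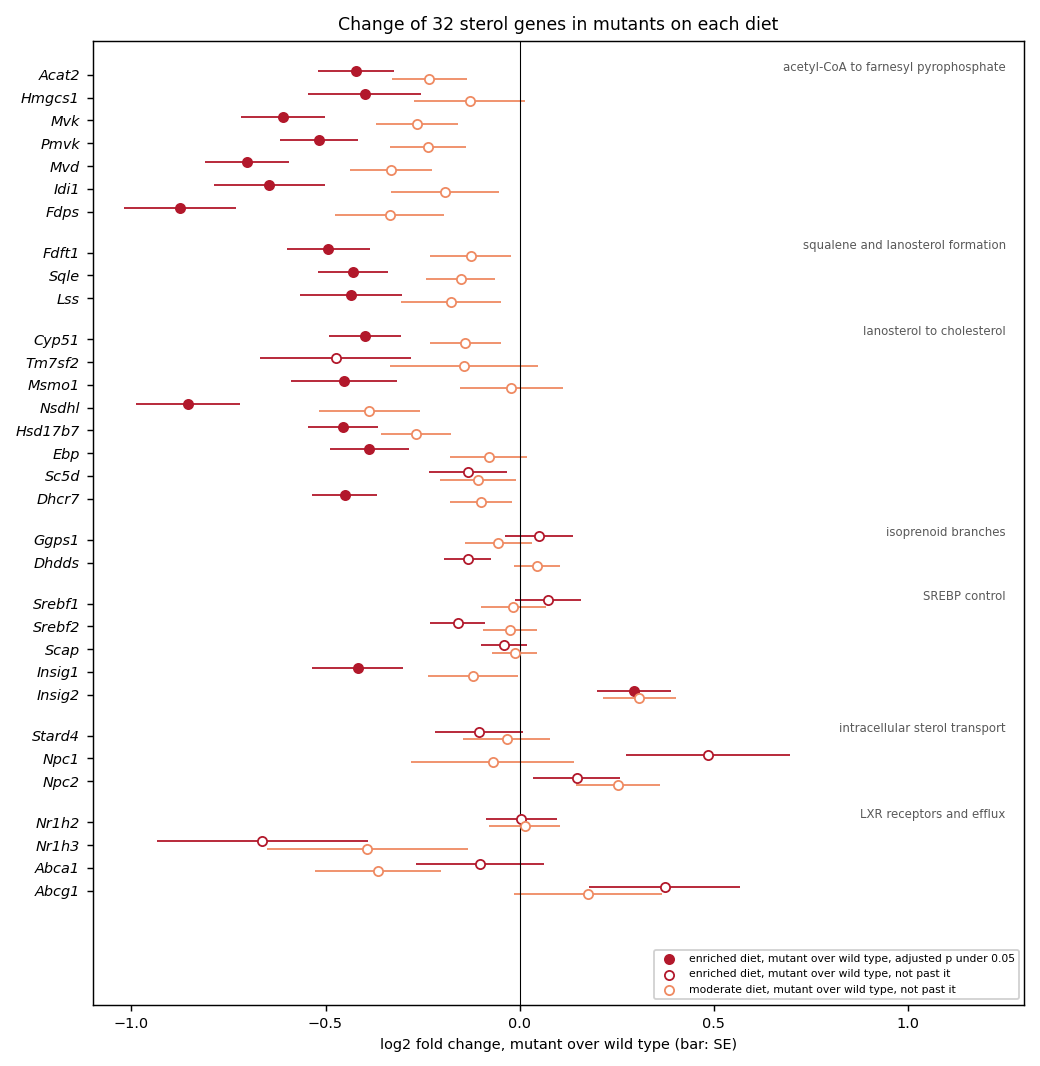
Log2 fold change of each of the 32 sterol genes in mutants over wild type (x axis, bars are the standard error) on the enriched diet and on the moderate diet, grouped by role; filled points passed an adjusted p of 0.05. All 18 synthesis enzymes lie left of 0 on both diets, further left on the enriched diet, while Insig2 lies right of 0 on both.

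The first 7 enzymes take acetyl-CoA to farnesyl pyrophosphate. Mvd, mevalonate diphosphate decarboxylase (chr8:122433601-122443422, minus strand), had 37.9, 30.1, 31.1 and 33.4 CPM in enriched-diet mutants, against 61.0, 49.1, 51.0 and 59.6 CPM in enriched-diet wild type. It had 41.1, 35.3, 45.3 and 36.2 CPM in moderate-diet mutants, against 48.8, 48.5, 57.7 and 44.5 CPM in moderate-diet wild type. The highest enriched-diet mutant thus stayed below the lowest wild type embryo on that diet, while on the moderate diet mutant 3 stood above wild type 4. Mvd fell by 38.5% on the enriched diet (log2 fold change -0.70 ± 0.11 SE, adjusted p = 0.000385). On the moderate diet its log2 fold change was -0.33 ± 0.10 (adjusted p = 0.0641).

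Fdps, farnesyl diphosphate synthase (chr3:89093588-89101959, minus strand), had the largest fold change of the 32 genes on the enriched diet. It had 24.4, 15.8, 19.5 and 21.1 CPM in enriched-diet mutants, against 39.5, 33.5, 35.6 and 44.4 CPM in enriched-diet wild type. The moderate-diet mutants had 27.4, 22.7, 29.6 and 22.6 CPM, against 29.3, 31.5, 40.5 and 28.4 CPM in moderate-diet wild type. Only the enriched diet separated the genotypes, with enriched-diet mutant 2 lowest of all 16 libraries. Fdps fell by 45.5% on the enriched diet (log2 fold change -0.87 ± 0.15, adjusted p = 0.000653), and its log2 fold change on the moderate diet was -0.33 ± 0.14 (adjusted p = 0.159). Of its exon bases, 26.7% overlap another annotated gene that the count files do not list.

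The other 5 enzymes of this stretch also fell on the enriched diet, with log2 fold changes of -0.61 ± 0.11 for Mvk (mevalonate kinase), -0.64 ± 0.14 for Idi1 (isopentenyl diphosphate isomerase), -0.52 ± 0.10 for Pmvk (phosphomevalonate kinase), -0.42 ± 0.10 for Acat2 (acetyl-CoA acetyltransferase) and -0.40 ± 0.15 for Hmgcs1 (HMG-CoA synthase). Their adjusted p ranged between 0.00100 for Mvk and 0.0481 for Hmgcs1. Hmgcs1 was the least secure of these. It had 302, 267, 263 and 377 CPM in enriched-diet mutants, against 413, 393, 323 and 520 CPM in enriched-diet wild type, so that mutant 4 stood above wild type 3. Its call was lost in 21 of 28 alternative fits. Acat2 has a close neighbouring paralog, Acat3, and reads that match both were not counted. On the moderate diet the log2 fold changes of these 5 genes ran between -0.26 ± 0.11 for Mvk and -0.13 ± 0.14 for Hmgcs1.

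Squalene and lanosterol formation starts with Fdft1, squalene synthase, the first step committed to sterols. Fdft1 had 62.5, 50.2, 48.6 and 62.0 CPM in enriched-diet mutants, against 85.5, 73.9, 71.9 and 93.7 CPM in enriched-diet wild type. It had 73.0, 57.0, 68.3 and 66.3 CPM in moderate-diet mutants, against 68.2, 71.8, 85.2 and 64.6 CPM in moderate-diet wild type. The groups were apart on the enriched diet and overlapped widely on the moderate diet. Its fall on the enriched diet was 29.0% (log2 fold change -0.49 ± 0.11, adjusted p = 0.00330), beside a log2 fold change of -0.13 ± 0.10 on the moderate diet. Ctsb covers 18.3% of the exon bases of Fdft1, and the library kit did not keep the strand.

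Sqle, squalene epoxidase (chr15:59315077-59331192, plus strand), had 143, 119, 136 and 153 CPM in enriched-diet mutants, against 196, 182, 171 and 206 CPM in enriched-diet wild type. It had 168, 145, 173 and 154 CPM in moderate-diet mutants, against 168, 180, 203 and 162 CPM in moderate-diet wild type. Again only the enriched-diet groups were apart. Sqle fell by 25.7% on the enriched diet (log2 fold change -0.43 ± 0.09, adjusted p = 0.00278). Lss, lanosterol synthase, averaged 58.8 ± 10.7 CPM in enriched-diet mutants and 82.3 ± 13.0 CPM in enriched-diet wild type (SD, n = 4 each), a log2 fold change of -0.43 ± 0.13 (adjusted p = 0.0199). Its libraries overlapped, with mutant 4 inside the wild type range.

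The last stretch strips methyl groups from lanosterol and moves its double bonds. Nsdhl, an X-linked sterol dehydrogenase (chrX:72918557-72958514, plus strand), changed most. It had 43.1, 33.5, 41.3 and 42.9 CPM in enriched-diet mutants, against 76.1, 73.1, 63.9 and 82.1 CPM in enriched-diet wild type. The moderate-diet mutants had 56.2, 46.4, 64.9 and 50.1 CPM, against 66.1, 74.1, 87.8 and 57.8 CPM in moderate-diet wild type. Every enriched-diet mutant was also below every moderate-diet mutant. Nsdhl fell by 44.7% on the enriched diet (log2 fold change -0.85 ± 0.13, adjusted p = 0.000446), and its log2 fold change on the moderate diet was -0.39 ± 0.13 (adjusted p = 0.0794).

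Hsd17b7, which reduces a ketone on the sterol ring, was the synthesis gene whose genotypes were apart on both diets. It had 26.6, 25.2, 26.7 and 32.9 CPM in enriched-diet mutants, against 33.9, 38.8, 38.1 and 43.8 CPM in enriched-diet wild type. It had 34.1, 32.4, 34.1 and 32.5 CPM in moderate-diet mutants, against 40.7, 39.6, 43.0 and 37.2 CPM in moderate-diet wild type. No mutant reached a wild type embryo of its own diet. Hsd17b7 fell by 27.0% on the enriched diet (log2 fold change -0.45 ± 0.09, adjusted p = 0.00204). On the moderate diet its log2 fold change was -0.27 ± 0.09 and did not pass (adjusted p = 0.0784).

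Of the other 6 enzymes of this stretch, 4 fell on the enriched diet: Dhcr7, the last reductase before cholesterol (log2 fold change -0.45 ± 0.08), Cyp51, lanosterol demethylase (-0.40 ± 0.09), Msmo1, a sterol methyl oxidase (-0.45 ± 0.14), and Ebp, an X-linked sterol isomerase (-0.39 ± 0.10). Their adjusted p were 0.00120, 0.00518, 0.0198 and 0.00993 in that order. Tm7sf2, a sterol reductase, had a log2 fold change of -0.47 ± 0.19 (adjusted p = 0.0738), and Sc5d, a sterol desaturase, one of -0.13 ± 0.10 (adjusted p = 0.324). Tm7sf2 shares 12.1% of its exon bases with Vps51. Leaving out enriched-diet mutant 2, the lowest of its group in 10 of the 18 synthesis enzymes, ended the calls of Hmgcs1, Lss, Msmo1, Ebp and Insig1 and left 12 of the 32 genes lower on the enriched diet, where 21.7% of all genes then passed (10.1% fell and 11.7% rose).

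**Figure D2:**
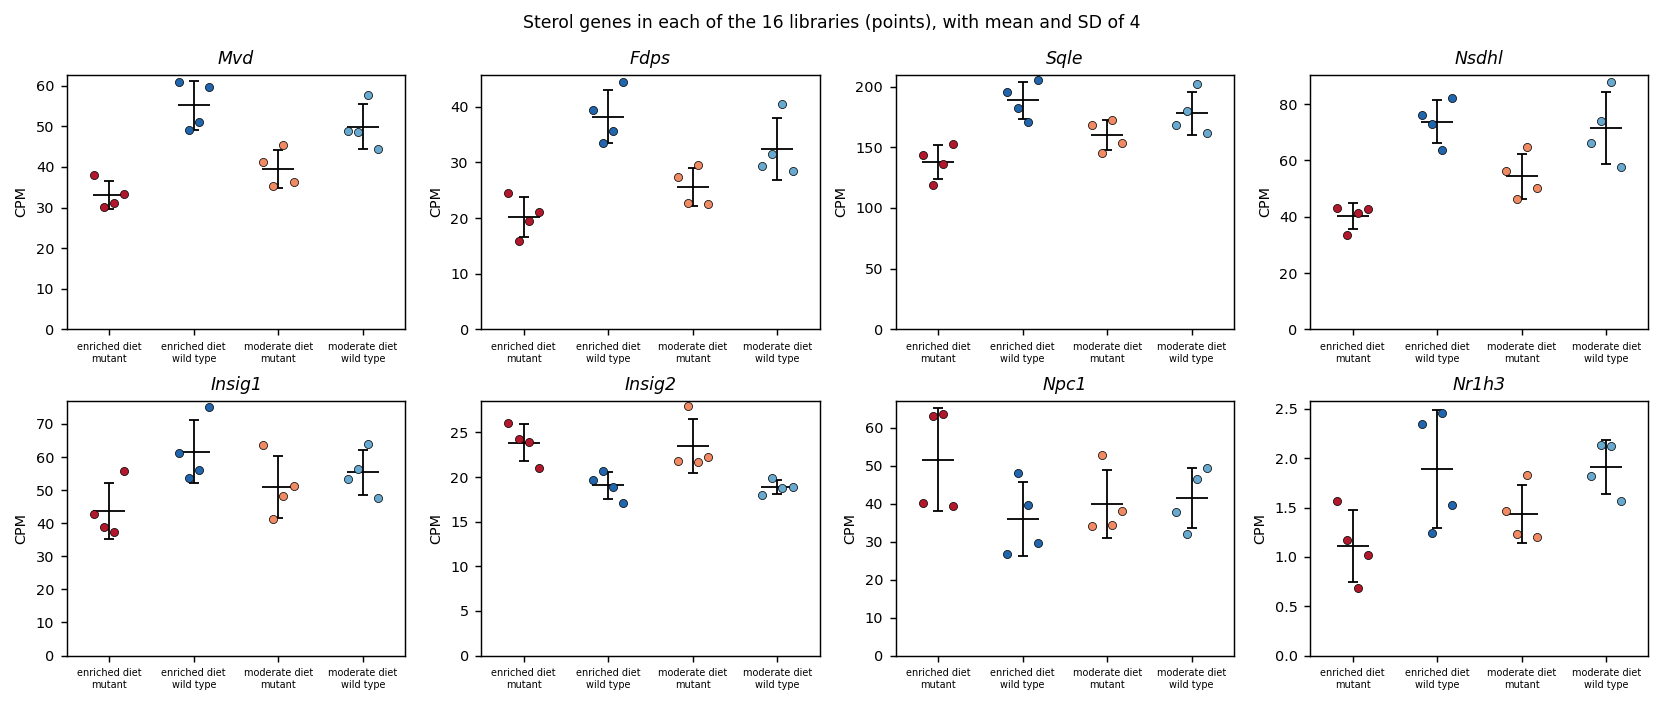
CPM (y axis, from 0) of 8 sterol genes in each of the 16 libraries (points) by group, with the mean and SD of 4 libraries. Mvd, Fdps, Sqle and Nsdhl have every enriched-diet mutant below every enriched-diet wild type embryo, Insig2 has every mutant above every wild type embryo, and Insig1, Npc1 and Nr1h3 overlap.

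The promoters of the genes that fell together are shown for the letters bound by SREBP and by NF-Y, the factor that binds the CCAAT box and is known to work beside SREBP. Promoter sequences came from RefSeq (GRCm38.p6, the mm10 build) and covered 26 of the 32 genes, 15 of them synthesis enzymes. Fdps, Fdft1 and Sqle, which fell on the enriched diet, had no entry. The RefSeq genes were not filtered by counts here, while all 32 sterol genes passed the filter on low counts. The sterol regulatory element was searched as TCACNCCAC on both strands in the 250 bases before each start. It was found in 1 of the 26 promoters, that of Hmgcs1, and in 1.22% of the 27025 genes in the table. Allowing up to 1 other letter, it was found in 7 of the 15 synthesis promoters (46.7%), against 23.0% of all genes. CCAAT on either strand was found in 14 of the 15 synthesis promoters (93.3%), against 37.5% of all genes, and the GC box GGGCGG likewise in 14 of 15 (93.3%), against 35.4%. The 11 other sterol genes with a promoter, most of which were not called, held CCAAT in 7 (63.6%), GGGCGG in 8 (72.7%) and the sterol element with up to 1 other letter in 4 (36.4%). These are matches of letters, not measured sites, and the motifs TCACNCCAC and CCAAT did not overlap in the promoters printed. GGGCGG was not marked, and its matches did not overlap the marked ones there. Hmgcs1 is shown for its full match, and Mvd, Nsdhl, Mvk and Insig1 as genes that fell and had an entry, chosen after the matches were seen. Capitals mark TCACNCCAC and CCAAT, or ATTGG where CCAAT lies on the other strand, and each promoter reads 5′ to 3′ towards the gene. The stretches are chr13:119690101-119690350 (plus strand) for Hmgcs1, chr8:122443423-122443672 (minus strand) for Mvd, chrX:72918271-72918520 (plus strand) for Nsdhl, chr5:114444019-114444268 (plus strand) for Mvk and chr5:28071162-28071362 (plus strand) for Insig1, the last 201 bases long because it stops at the annotated start of the gene.
Hmgcs1: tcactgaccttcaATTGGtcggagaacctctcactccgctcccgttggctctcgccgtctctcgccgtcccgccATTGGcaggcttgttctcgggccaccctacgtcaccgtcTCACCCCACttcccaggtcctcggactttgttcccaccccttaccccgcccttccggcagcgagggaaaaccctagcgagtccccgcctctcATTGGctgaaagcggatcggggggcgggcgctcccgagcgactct
Mvd: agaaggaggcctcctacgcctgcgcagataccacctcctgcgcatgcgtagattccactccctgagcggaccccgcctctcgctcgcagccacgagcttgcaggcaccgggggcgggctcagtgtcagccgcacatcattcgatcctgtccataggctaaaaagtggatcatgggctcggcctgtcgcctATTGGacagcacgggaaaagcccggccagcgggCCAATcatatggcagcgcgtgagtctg
Nsdhl: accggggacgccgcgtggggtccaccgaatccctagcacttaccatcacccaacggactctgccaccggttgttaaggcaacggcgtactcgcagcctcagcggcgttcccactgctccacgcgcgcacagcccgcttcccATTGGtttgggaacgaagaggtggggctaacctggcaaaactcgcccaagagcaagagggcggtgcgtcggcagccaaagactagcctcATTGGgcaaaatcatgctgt
Mvk: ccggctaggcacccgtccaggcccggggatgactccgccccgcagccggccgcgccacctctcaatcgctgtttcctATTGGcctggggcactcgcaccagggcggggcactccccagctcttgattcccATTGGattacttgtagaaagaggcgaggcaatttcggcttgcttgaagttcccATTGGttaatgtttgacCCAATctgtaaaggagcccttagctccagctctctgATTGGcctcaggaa
Insig1: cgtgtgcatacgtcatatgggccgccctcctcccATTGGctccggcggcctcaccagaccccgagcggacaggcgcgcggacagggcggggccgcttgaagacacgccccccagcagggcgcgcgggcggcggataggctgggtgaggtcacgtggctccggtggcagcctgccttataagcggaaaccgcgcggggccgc
Hmgcs1 carries 1 sterol element and 3 CCAAT boxes in this stretch. The full sterol element of Hmgcs1 lies 137 to 129 bases before the start. The other 4 promoters hold CCAAT boxes with no full match to TCACNCCAC, which says only that those letters are not in this window.

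The isoprenoid branches leave the pathway at farnesyl pyrophosphate. Dhdds, a subunit of the enzyme that makes dolichol precursors, had 55.0, 52.4, 55.6 and 53.1 CPM in enriched-diet mutants, against 62.1, 57.1, 60.5 and 57.3 CPM in enriched-diet wild type. The moderate-diet mutants had 58.3, 61.2, 58.2 and 55.4 CPM, against 53.6, 59.0, 56.3 and 57.1 CPM in moderate-diet wild type. The enriched-diet genotypes were apart by a narrow margin, with a log2 fold change of -0.13 ± 0.06 that did not pass (adjusted p = 0.104). Ggps1, which makes geranylgeranyl pyrophosphate, had 27.2, 24.5, 29.0 and 28.0 CPM in enriched-diet mutants, against 22.1, 29.4, 23.3 and 28.0 CPM in enriched-diet wild type. It had 25.3, 26.2, 28.0 and 27.8 CPM in moderate-diet mutants, against 30.1, 26.7, 27.6 and 27.1 CPM in moderate-diet wild type. The genotypes overlapped on both diets, with log2 fold changes of 0.05 ± 0.09 on the enriched and -0.05 ± 0.09 on the moderate diet.

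Within SREBP control, the 2 INSIG genes went in opposite directions. Insig1, itself a known SREBP target, had 42.8, 38.8, 37.4 and 55.8 CPM in enriched-diet mutants, against 61.3, 53.6, 56.2 and 75.0 CPM in enriched-diet wild type. It had 63.5, 41.2, 48.1 and 51.4 CPM in moderate-diet mutants, against 53.2, 56.5, 63.9 and 47.7 CPM in moderate-diet wild type. On the enriched diet 3 of the 4 mutants lay below every wild type embryo, mutant 4 being the exception, and on the moderate diet the genotypes overlapped. Insig1 fell by 25.1% on the enriched diet (log2 fold change -0.42 ± 0.12, adjusted p = 0.0147), and its log2 fold change on the moderate diet was -0.12 ± 0.12 (adjusted p = 0.574). The call on the enriched diet was also lost without enriched-diet wild type 2.

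Insig2, the other protein that retains SCAP, had 26.05, 24.3, 24.0 and 21.0 CPM in enriched-diet mutants, against 19.7, 20.7, 18.8 and 17.1 CPM in enriched-diet wild type. The moderate-diet mutants had 21.8, 28.0, 21.7 and 22.3 CPM, against 18.01, 19.9, 18.8 and 18.9 CPM in moderate-diet wild type. All 8 mutants lay above all 8 wild type embryos, which was so of 2.51% of all genes; within a diet, Insig2 was alone among the 32 in having every mutant higher, as 11.2% of all genes had on the enriched and 8.5% on the moderate diet. Insig2 rose by 22.7% on the enriched diet (log2 fold change 0.30 ± 0.10, adjusted p = 0.0277), and its log2 fold change on the moderate diet was 0.31 ± 0.09 (adjusted p = 0.0550). Averaged over the diets it was 0.30 ± 0.07 (adjusted p = 0.00270). The enriched-diet call was lost without enriched-diet mutant 2, without enriched-diet wild type 4, and in a fit of the 2 enriched-diet groups alone.

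The SREBP genes and their escort moved little. Srebf2, which encodes the SREBP most tied to cholesterol synthesis, averaged 309.7 ± 19.0 CPM in enriched-diet mutants and 353.6 ± 27.3 CPM in enriched-diet wild type (SD, n = 4 each). The 4 mutants lay below the 4 wild type embryos, and the log2 fold change of -0.16 ± 0.07 did not pass (adjusted p = 0.0964). Srebf1, whose products are more tied to fatty acid synthesis, had a log2 fold change of 0.07 ± 0.08 on the enriched diet and -0.02 ± 0.08 on the moderate diet. Scap had log2 fold changes of -0.04 ± 0.06 and -0.01 ± 0.06 on those diets. RNA levels do not measure how much SREBP protein is cut.

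Among the proteins of sterol transport, Npc1 and Npc2 hand cholesterol out of lysosomes and Stard4 carries it between membranes. Npc1 had 40.3, 63.2, 63.5 and 39.5 CPM in enriched-diet mutants, against 26.7, 48.2, 39.6 and 29.7 CPM in enriched-diet wild type. It had 34.1, 53.0, 34.5 and 38.0 CPM in moderate-diet mutants, against 37.9, 32.05, 46.4 and 49.5 CPM in moderate-diet wild type. Enriched-diet mutants 2 and 3 were the highest of all libraries, and mutants 1 and 4 lay within the wild type range. Its log2 fold change was 0.48 ± 0.21 on the enriched diet (adjusted p = 0.0902) and -0.07 ± 0.21 on the moderate diet (adjusted p = 0.884).

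Npc2 had 222, 211, 195 and 158 CPM in enriched-diet mutants, against 195, 150, 186 and 180.1 CPM in enriched-diet wild type. It had 204, 217, 168 and 188 CPM in moderate-diet mutants, against 160.1, 173, 153 and 165 CPM in moderate-diet wild type. Both diets had overlapping genotypes, with log2 fold changes of 0.15 ± 0.11 on the enriched and 0.25 ± 0.11 on the moderate diet. Averaged over the diets, Npc2 had a log2 fold change of 0.20 ± 0.08 that missed the threshold (adjusted p = 0.0543). Stard4 had log2 fold changes of -0.10 ± 0.11 on the enriched and -0.03 ± 0.11 on the moderate diet.

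The LXR receptors and efflux pumps were the least abundant of the 32 genes, apart from Nr1h2 (LXR beta). Nr1h3 (LXR alpha) had 1.56, 1.17, 0.689 and 1.02 CPM in enriched-diet mutants, against 2.35, 1.25, 2.45 and 1.53 CPM in enriched-diet wild type. It had 1.47, 1.23, 1.83 and 1.20 CPM in moderate-diet mutants, against 1.82, 2.13, 2.13 and 1.57 CPM in moderate-diet wild type. These values rest on 13 to 84 counts per library, and the genotypes overlapped on both diets. Nr1h3 fell when averaged over the diets (log2 fold change -0.53 ± 0.19, adjusted p = 0.0380) but passed on neither diet alone, and the averaged call was lost in 15 of 27 alternative fits.

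Abca1, which loads cholesterol onto apolipoprotein A-I, had 9.72, 11.99, 12.7 and 10.9 CPM in enriched-diet mutants, against 10.6, 11.9, 9.64 and 15.2 CPM in enriched-diet wild type. It had 10.6, 8.94, 12.7 and 12.4 CPM in moderate-diet mutants, against 15.3, 15.6, 10.4 and 16.5 CPM in moderate-diet wild type. The genotypes overlapped on both diets, in the moderate-diet wild type because replicate 3 was low. Its log2 fold changes were -0.10 ± 0.17 on the enriched and -0.36 ± 0.16 on the moderate diet (adjusted p = 0.667 and 0.185 in that order). Abcg1, another efflux pump, had log2 fold changes of 0.37 ± 0.19 and 0.18 ± 0.19 on the enriched and moderate diets, and Nr1h2 had 0.00 ± 0.09 and 0.01 ± 0.09.

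Averaged over both diets, 16 of the 32 genes fell and 1 rose, where 35.8% of all genes passed (18.5% fell and 17.4% rose). These were 14 of the 18 synthesis enzymes, Insig1 and Nr1h3 among the falls, and Insig2 as the rise. Hmgcs1 (adjusted p = 0.0555), Msmo1 (adjusted p = 0.0619), Tm7sf2 (adjusted p = 0.0880) and Sc5d (adjusted p = 0.189) did not pass. The largest averaged fold changes were those of Nsdhl, at -0.62 ± 0.09, Fdps, at -0.60 ± 0.10, and Mvd, at -0.52 ± 0.08 on the log2 scale. The averaged contrast uses the same libraries as the single-diet contrasts and adds no independent evidence to them.

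The genotype difference was compared between the diets directly. All 18 synthesis enzymes had a lower log2 fold change on the enriched than on the moderate diet, as had 7321 of all 14514 genes. The median difference of the 18 was -0.32. None of the 32 genes passed the test, and neither did any of the 14514 genes. The smallest adjusted p among the 32 was 0.501, by edgeR, and DESeq2 also called 0. At an unadjusted p under 0.05, 10 of the 32 genes were found, all of them synthesis enzymes, against 9.65% of all genes. The largest differences among the 18 were -0.54 ± 0.20 for Fdps, -0.47 ± 0.19 for Nsdhl and -0.45 ± 0.20 for Idi1. The median over the 32 genes was -0.26 and was -0.15 without enriched-diet mutant 2. Synthesis genes passed the test of genotype on 1 diet only, but the test of the difference between the diets was not passed.

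The diets were also compared within each genotype, in contrasts that share libraries with the one above. In mutants, enriched over moderate diet, none of the 32 genes passed the test (0 of all genes). All 18 synthesis enzymes had a log2 fold change below 0, as had 7400 of all 14514 genes, with a median of -0.27 for the 18. At an unadjusted p under 0.05, 14 of the 32 were found by edgeR, against 10.8% of all genes, and DESeq2 called 0 of the 32. Every enriched-diet mutant lay below every moderate-diet mutant for Nsdhl, Dhcr7 and Idi1, as for 1.74% of all genes. Their log2 fold changes were -0.45 ± 0.13, -0.30 ± 0.08 and -0.40 ± 0.14 in that order, and the smallest adjusted p among the 32 was 0.442. In wild type embryos, enriched over moderate diet, none passed, none had an unadjusted p under 0.05 (2.44% of all genes had), DESeq2 called 0, and the median of the 18 synthesis enzymes was 0.05. Averaged over the genotypes, 0 of the 32 genes passed the test of diet, and 3 of the 32 had an unadjusted p under 0.05, against 3.62% of all genes.

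**Figure D3:**
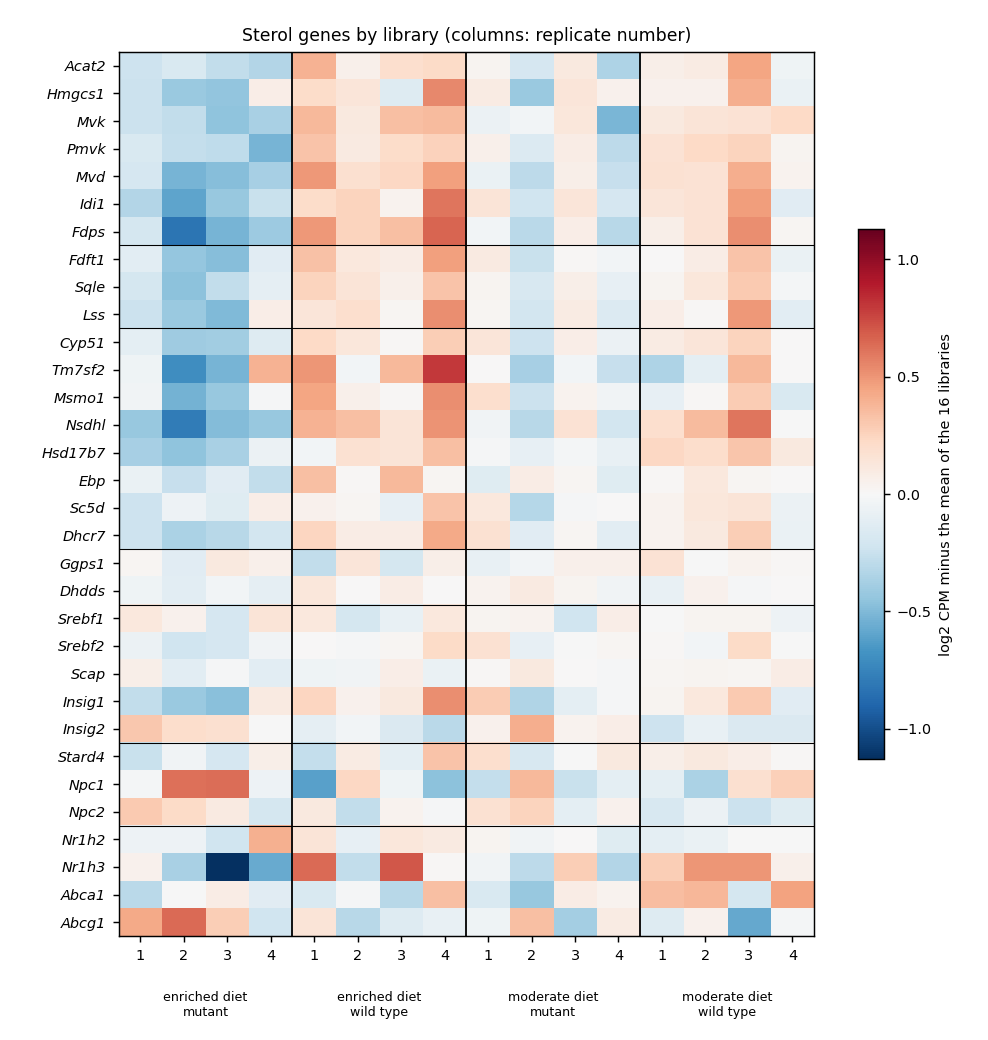
Level of each of the 32 sterol genes (rows, ordered by role, with lines between roles) in each library (columns, by group and replicate number), as log2 CPM minus the gene's mean over the 16 libraries. The 18 synthesis genes in the upper rows are blue in most enriched-diet mutant cells and red in most enriched-diet wild type cells, and vary together between libraries of a group, while Insig2 has the opposite colours.

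The synthesis enzymes also varied together between embryos of one group. Moderate-diet wild type 3 was the highest of its group in 16 of the 18, and moderate-diet wild type 4 the lowest in 16. Enriched-diet wild type 4 was the highest of its group in 13 and moderate-diet mutant 2 the lowest in 13. Among the 14 genes outside synthesis, no library was the highest of its group in more than 7 or the lowest in more than 8. The mean centred level of the 18 enzymes (log2 CPM minus each gene's mean over all libraries) was -0.30 ± 0.13 in enriched-diet mutants, -0.07 ± 0.14 in moderate-diet mutants, 0.25 ± 0.14 in enriched-diet wild type and 0.12 ± 0.15 in moderate-diet wild type (SD, n = 4 each). The enriched-diet genotypes were apart by this measure, and the moderate-diet genotypes overlapped.

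Compared per kilobase of exon, the sterol genes spanned a wide range of levels. Hmgcs1 was the most abundant, at 65.7 RPKM in enriched-diet mutants, 76.8 RPKM in moderate-diet mutants, 89.7 RPKM in enriched-diet wild type and 84.4 RPKM in moderate-diet wild type (CPM per kilobase of exon, group means). Over all 16 libraries the mean level was 79.2 RPKM for Hmgcs1, 48.1 for Acat2, 47.3 for Srebf2, 36.1 for Cyp51, 33.6 for Npc2 and 30.0 for Sqle. The lowest were Abca1 at 1.18 RPKM, Abcg1 at 1.05 RPKM and Nr1h3 at 0.631 RPKM. The genes with the largest fold changes were not the most abundant, Fdps standing at 6.92 RPKM and Mvd at 23.9 RPKM. Lengths were those of all annotated exons joined, which lowers the level of a gene with long, rarely used exons.

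**Figure D4:**
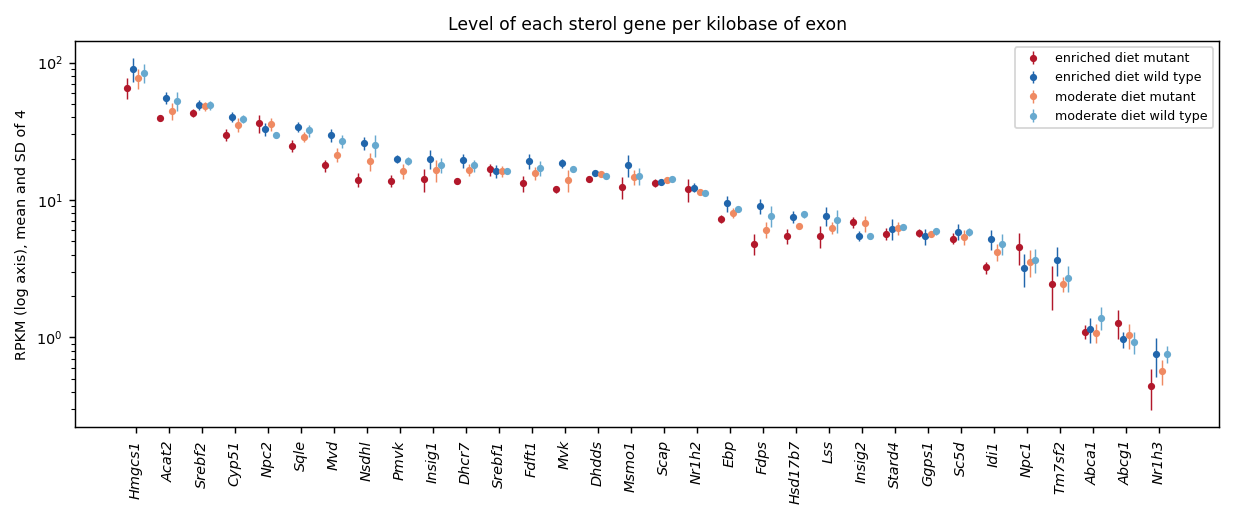
Mean level and SD of 4 libraries (RPKM, log axis) of each sterol gene in each group, with genes ordered by their mean over 16 libraries. Levels run between 79.2 RPKM for Hmgcs1 and 0.631 RPKM for Nr1h3, and the enriched-diet mutants are the lowest group for most synthesis genes.

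Other genes of lipid metabolism were taken from lists chosen by function, also with earlier results of these data known. Of 11 tested further genes of cholesterol synthesis and uptake under SREBP, 7 fell and 0 rose on the enriched diet and 1 fell on the moderate diet, with medians of -0.33 and -0.09. Of 14 tested fatty acid genes under SREBP, 4 fell and 1 rose on the enriched diet, and 3 fell on the moderate diet. These 3 fell on both diets: Fasn, fatty acid synthase (log2 fold change -0.42 ± 0.11 enriched and -0.41 ± 0.10 moderate), Scd2, a stearoyl-CoA desaturase (-0.49 ± 0.07 and -0.24 ± 0.07), and Fads2, a polyunsaturated fatty acid desaturase (-0.44 ± 0.06 and -0.24 ± 0.06). Their moderate-diet calls were lost in 6, 17 and 9 of 28 alternative fits in that order, and on the enriched diet that of Fasn was lost in 2. Of 14 tested genes that use isoprenoids and dolichol, 5 fell on the enriched diet and none on the moderate diet. Icmt, which methylates prenylated proteins, had log2 fold changes of -0.38 ± 0.07 (adjusted p = 0.00162) and -0.19 ± 0.07 (adjusted p = 0.120) on the enriched and moderate diets.

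Of 13 tested genes of SREBP processing and HMG-CoA reductase turnover, none fell and 1 rose on each diet. It was Mbtps2, the X-linked site-2 protease that frees SREBP from the membrane, with log2 fold changes of 0.62 ± 0.10 on the enriched diet (adjusted p = 0.000760) and 0.39 ± 0.10 on the moderate diet (adjusted p = 0.0288). The moderate-diet call was lost in 8 of 28 alternative fits. Of 20 tested genes of sterol transport, storage and efflux, 3 fell and 4 rose on the enriched diet, and 2 fell and 1 rose on the moderate diet. Soat1, which esterifies cholesterol for storage, rose on both diets (log2 fold change 0.85 ± 0.15 enriched, adjusted p = 0.000905, and 0.94 ± 0.15 moderate, adjusted p = 0.000927). Abcg5, a partner in a sterol efflux pump, fell on both (-0.60 ± 0.18 and -0.68 ± 0.18), with the call lost in 8 of 28 alternative fits on the enriched and 10 of 28 on the moderate diet. Of 6 tested oxysterol and bile acid enzymes, none fell and 2 rose on the enriched diet, Cyp27a1 (1.21 ± 0.28) and Cyp46a1 (1.34 ± 0.33), both sterol hydroxylases. Neither passed on the moderate diet. Among all genes the shares that fell and rose were 16.8% and 14.4% on the enriched diet and 2.83% and 4.79% on the moderate diet.

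Hypoxia genes and S phase genes were set beside these results. Of 18 hypoxia and glycolysis genes, 17 rose in mutants on each diet. Their summed level was 10737 to 14036 CPM in enriched-diet mutants, 9937 to 15898 CPM in moderate-diet mutants, 6998 to 8846 CPM in enriched-diet wild type and 5703 to 6341 CPM in moderate-diet wild type. Of 15 S phase genes, 9 fell on the enriched diet, and none fell and 1 rose on the moderate diet. Their summed level was 3923 to 4956 CPM in enriched-diet mutants, 4510 to 5489 CPM in moderate-diet mutants, 4546 to 5223 CPM in enriched-diet wild type and 4874 to 5263 CPM in moderate-diet wild type. Moderate-diet mutant 3 had the lowest mean hypoxia level of the mutants (-0.21 against 0.80 or more in the other 7) and the highest synthesis level of its group (0.06). Moderate-diet mutant 1 summed to 13256.5 CPM for hypoxia genes and was the highest of its group in 8 of the 18 enzymes, mutant 3 in 9. Moderate-diet mutant 2 had the highest hypoxia sum of its group (15898 CPM) and was its lowest in 13 of the 18. Enriched-diet mutant 4 had the lowest hypoxia sum of its group (10737 CPM) and was its highest in 9. Enriched-diet mutant 1 had the highest hypoxia sum of that group (14036 CPM) and was its highest in 8. Of the wild type groups, the enriched-diet one had the higher mean hypoxia level (-0.68 against -1.01) and the higher synthesis level (0.25 against 0.12). The part of these programmes in the fall of the synthesis genes was not tested.

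**Figure D5:**
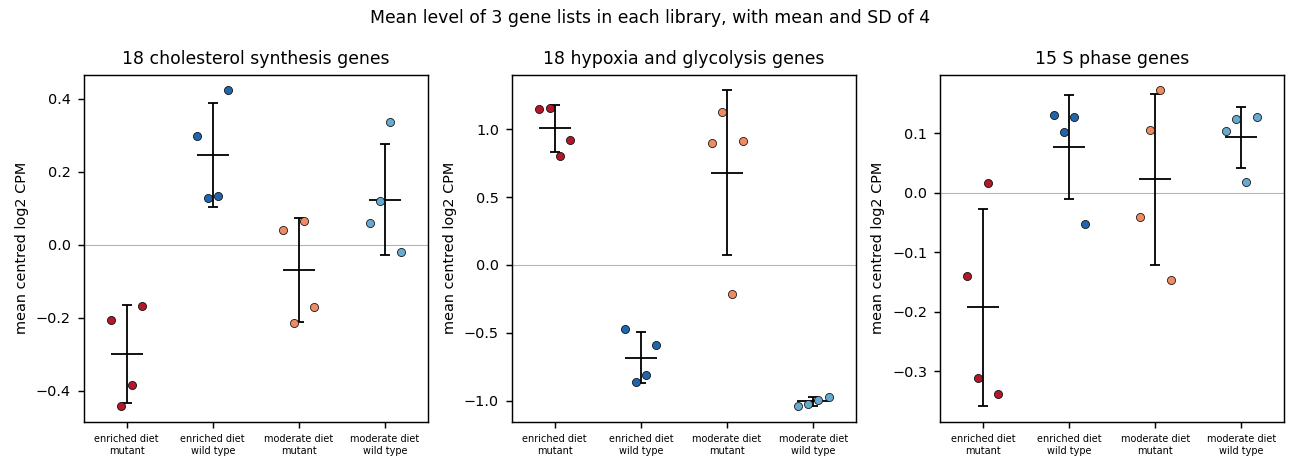
Mean centred log2 CPM (y axis) of the 18 cholesterol synthesis genes, 18 hypoxia and glycolysis genes and 15 S phase genes in each library (points), with the mean and SD of 4 libraries per group. Hypoxia genes are high in 7 of the 8 mutants, moderate-diet mutant 3 standing apart at -0.21, and the synthesis genes separate the genotypes on the enriched diet only.

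Markers of other tissues were set beside these results. The 11 endothelial markers summed to 412 to 451 CPM in enriched-diet mutants, 438 to 496 CPM in moderate-diet mutants, 415 to 481 CPM in enriched-diet wild type and 384 to 461 CPM in moderate-diet wild type. Erythroid markers summed to 723 to 3598 CPM in enriched-diet mutants, 1251 to 3398 CPM in moderate-diet mutants, 1522 to 3840 CPM in enriched-diet wild type and 2477 to 6546 CPM in moderate-diet wild type, with Hba-a1 listed at 0 throughout. The 12 yolk sac markers summed to at most 156 CPM in enriched-diet mutants, 59.0 CPM in moderate-diet mutants, 46.8 CPM in enriched-diet wild type and 37.8 CPM in moderate-diet wild type. Decidua and placenta markers summed to 191 CPM in enriched-diet mutant 3 and to at most 9.96 CPM in every other library. Cardiomyocyte and macrophage markers summed to at most 8.12 CPM and 8.66 CPM in any library. Endothelial markers included 4 that fell and 2 that rose on the enriched diet, and 2 that rose on the moderate diet. Of 9 tested erythroid markers, 2 fell on the enriched and 1 on the moderate diet, and 2 of the yolk sac markers rose on each diet. Of 3 tested decidua and placenta markers, 1 fell and 1 rose on the enriched diet and none passed on the moderate diet. Of 3 tested macrophage markers, none passed on the enriched diet and 2 fell on the moderate diet, and of 5 tested cardiomyocyte markers none passed on either. Among the 12 head markers, 1 rose on the enriched diet and none passed on the moderate diet. Their part in the sterol results was not tested. Without moderate-diet mutant 3, moderate-diet wild type 2 and enriched-diet mutant 3, 13 of the 32 genes fell and Insig2 rose on the enriched diet, where 29.9% of all genes passed (14.2% fell and 15.7% rose). In that fit Mvd fell and Insig2 rose on the moderate diet, where 11.3% of all genes passed (4.47% fell and 6.79% rose).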

How the data were processed

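RNA was sequenced from 16 libraries of mouse embryo head tissue, 4 per group; the labels' protocols name an Illumina TruSeq RNA kit, a type that does not keep the strand. Per the submitters' processing notes the tools were FastQC 0.11.5, TopHat2 2.1.1, SAMtools 1.8, HTSeq 0.9.1 and DESeq2 1.22.2 with the mm10 build; the settings of each are not given in the sources used here. Files deposited by the authors, 1 per library, held raw counts per gene and 5 summary lines, which were left out of library sizes and tests.

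Genes that reached 10 counts in 4 or more libraries were tested with edgeR 4.0.16 (quasi-likelihood test, TMM scaling, limma 3.58.1, R 4.3.3). The fit held all 16 libraries, 1 coefficient per group and sex as labelled, with Benjamini-Hochberg adjustment over 14514 genes and a threshold of 0.05; 7 contrasts were taken, and standard errors are the log2 fold change over the root of F. CPM used TMM library sizes, and RPKM the joined exons of the annotation. Replicate numbers were checked and not taken as a pairing. Alternatives included DESeq2 1.42.0 and limma-voom, leaving out each library, and the replicate block.

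Values are given in every library for the 2 genes of each role with the smallest p averaged over the diets and for genes whose call went against the rest; Hmgcs1 was added for its unstable call. Further genes are named where they passed on both diets or had 1 of the 2 smallest p of their list, though not all such genes are reported here. The genes and lists were chosen with earlier results of these data known. No protein sequences were used here. Counting error is small at these depths, except for Nr1h3.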

Additional observations from a re-analysis of the deposited data

Results flagged for a closer look

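In 4 of 128 groups of 4 libraries, 1 library stood far outside its group's other 3, where chance gives about 1 in 20 groups. Mvk was at 43.6 CPM in enriched-diet wild type 2, against 51.1 to 52.0 CPM in the other 3 enriched-diet wild type libraries. Srebf2 was at 394 CPM in enriched-diet wild type 4, against 336 to 344 CPM in the rest of its group. Scap was at 109 CPM in moderate-diet wild type 4, against 104 to 105 CPM in the rest of its group. Insig2 was at 28.0 CPM in moderate-diet mutant 2, against 21.7 to 22.3 CPM in the other 3 moderate-diet mutants.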

How the results depend on the processing

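No gene that passed the test changed sign under an alternative, and neither did a median over the 32 genes except that for diet in wild type (0.02, between -0.03 and 0.07). Among values that did not pass, Hmgcs1, Msmo1 and Sc5d on the moderate diet were above 0 in at least 1 alternative (up to 0.03, 0.05 and 0.01), as did Tm7sf2 for diet in mutants and Sc5d for the difference between diets. The count of sterol genes lower on the enriched diet (17) ran between 12 and 18 when 1 library was left out and between 13 and 20 otherwise; averaged over the diets (16) it ran between 12 and 17 and between 11 and 19. On the moderate diet the count of genes lower (0) was 2 by DESeq2's Wald test, 1 with the replicate block, 3 at an adjusted p of 0.1, 1 without the 3 unusual libraries (an alternative chosen after seeing the data), and 0 to 4 when 1 library was left out; the count higher (0) was 1 in each of those 4 fits and 0 to 1 leaving out 1 library. The count higher on the enriched diet (1) was 2 by DESeq2 and at 0.1, 0 with only the groups compared, and 0 to 2 leaving out 1 library. Averaged over the diets, the count higher (1) was 2 with DESeq2 size factors, DESeq2's test, no filter, a CPM filter, no sex covariate, sex taken from the counts, or 0.1, 3 without the 3 unusual libraries, and 1 to 3 leaving out 1 library. With sex taken from the counts, 16 genes fell on the enriched diet (beside 14.7% of all genes) and 14 averaged over the diets (16.9%). Without the 3 libraries of contradicted sex label, 16 fell on the enriched diet, 0 on the moderate diet and 11 averaged over the diets. All genes passing in that fit were 3825, 105 and 2964 in that order, against 4524, 1106 and 5202 in the main fit. The causes were not tested. The diet contrasts and the difference gave 0 in every fit. The median over the 32 genes on the enriched diet was -0.41 and ran between -0.45 and -0.28, the weakest without enriched-diet mutant 2. A fit of only the groups compared cannot give the averages or the difference.

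Same-numbered libraries of different groups did not deviate together as a whole (correlations of -0.29 to 0.51 over 24 pairs, 8 above 0.1), so the numbers were not taken as a pairing. Libraries numbered 4 correlated at 0.51 between enriched-diet mutants and enriched-diet wild type, at 0.46 between moderate-diet mutants and enriched-diet wild type and at 0.32 between the mutants of both diets. The replicate block gave 18 genes lower and 1 higher on the enriched diet and 19 lower and 1 higher averaged over the diets.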
